A study of Mus musculus with 7 samples.

Results

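The prostaglandin and leukotriene pathway genes described here are 10 genes taken by name from the 23361 genes listed for each library: Ptgs1, Ptgs2, Ptges, Ptger2, Ptger4, Alox5, Alox5ap, Alox15, Ltc4s and Hpgds. All 10 passed the filter on low counts, as did 12858 of the genes listed. Macrophages were sorted from the regenerative bridge that forms inside an empty conduit after transection and repair of the sciatic nerve of wild-type BALB/cJ mice, an inbred strain. The sort kept lineage-negative cells with F4/80, CD14, CD11b and CD16/32 on the surface, and its lineage gate removed cells stained for Ly6G (granulocytes), Siglec F (eosinophils), Thy1.2 (fibroblasts) and markers of B, T and red blood cells. RNASeq was carried out on 7 libraries, of which 3 were made at day 5 after injury, 2 at day 14 and the other 2 at day 28, and the series describes them as independent biological replicates. All 7 libraries come from injured and repaired nerves, so no uninjured nerve serves as a baseline, and the age of the mice and the number pooled per library are not given in the sources used here.

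Prostaglandins and leukotrienes are lipid signals made from arachidonic acid. Cyclooxygenases turn the freed fatty acid into prostaglandin H2, which terminal synthases convert into single prostaglandins, whereas 5-lipoxygenase and its helper protein start the path to leukotrienes. In injured tissue these mediators are known for swelling, pain and leukocyte recruitment, and prostaglandin E2 also dampens macrophage activation through receptors that raise cyclic AMP.

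Between days 5 and 28, Alox5 and Ptger2 rose and Ptges and Ltc4s fell. Alox5 and Ptger4 rose between days 5 and 14, and none of the 10 genes passed the test between days 14 and 28. Ptgs1, Ptgs2, Alox5ap, Alox15 and Hpgds were called in none of the 3 comparisons. A gene was called changed when edgeR's quasi-likelihood test gave an adjusted p (Benjamini-Hochberg, over all 12858 genes) under 0.05. Levels are given as FPKM, fragments scaled to transcript length and library size, which allows genes to be set side by side. Fold changes are those of mean FPKM, and log2 fold changes with their SE are those of the edgeR fit. In sorted pools, fewer cells that express a gene and less RNA per cell cannot be told apart.

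The libraries held 18027190 to 35247116 fragments assigned to genes. Over log2(FPKM + 1) of all genes used, which are not independent replicates, day 14 replicate 1 correlated at 0.9842 with day 14 replicate 2 and at 0.9846 to 0.9866 with the day 5 libraries, and day 14 replicate 2 at 0.9855 and 0.9888 with those of day 28. The day 14 means therefore join libraries that stand apart, and values without each are given where they change a call. The 9 macrophage markers together stood at 16417 to 22490 FPKM in every library, and Lyz2 alone at 10675.3 to 18376.5 FPKM. From day 5 to day 28, Emr1 (2.03-fold, adjusted p = 0.00650 by edgeR) and Cd14 (1.71-fold, 0.0145) were called lower. Of 9 mast cell markers, Fcer1a was listed at 0 in all 7 libraries, 7 others did not exceed 0.874 FPKM, and Hdc, histidine decarboxylase, stood at 9.33 to 41.8 FPKM and was called higher at day 14 than at day 5 (2.04-fold, adjusted p = 0.0361 by edgeR). Of 5 eosinophil markers, Epx reached 0.0165 FPKM, Prg2 1.13 FPKM and Ccr3 3.42 FPKM. Siglec5, the older symbol of the Siglec F gene, stood at 0.413 to 1.91 FPKM. It was called higher from day 5 to day 28 (3.55-fold, adjusted p = 0.0105 by edgeR). The 6 fibroblast markers summed to 80.2 to 222 FPKM at day 14 and to 27.8 to 72.1 FPKM at day 5, with the highest sum in day 14 replicate 1. The 8 neutrophil markers summed to 500.3 to 522 FPKM at day 14 and to 242 to 279 FPKM at day 5.

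The upstream sequences of 3 of these genes are shown because Alox5 rose by day 28, Ptges fell, and Ptgs2 was the more abundant cyclooxygenase. Each run is the 250 bases before the RefSeq gene start on GRCm38.p6, read 5′ to 3′ on the strand of the gene. The window of Alox5 is chr6:116461179-116461428 on the minus strand, that of Ptges is chr2:30903298-30903547 on the minus strand, and that of Ptgs2 is chr1:150099781-150100030 on the plus strand. Capitals mark matches to 7 motifs: the GC box GGGCGG, the core of the ETS family motif GAGGAA, the C/EBP motif TTGCNNAA, the AP-1 motif TGANTCA, the E-box CACGTG and the CRE core TGACG on both strands, and the TATA box TATAAA on the strand of the gene.
Alox5: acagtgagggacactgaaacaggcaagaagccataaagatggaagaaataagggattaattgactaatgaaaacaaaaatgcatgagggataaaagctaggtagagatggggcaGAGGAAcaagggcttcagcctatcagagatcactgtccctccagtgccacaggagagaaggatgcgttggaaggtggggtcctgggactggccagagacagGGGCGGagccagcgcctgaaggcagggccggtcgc
Ptges: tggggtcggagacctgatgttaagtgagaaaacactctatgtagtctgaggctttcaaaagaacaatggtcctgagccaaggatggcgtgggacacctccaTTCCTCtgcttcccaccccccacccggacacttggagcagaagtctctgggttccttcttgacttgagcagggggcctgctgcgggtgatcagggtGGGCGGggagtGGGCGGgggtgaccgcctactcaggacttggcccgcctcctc
Ptgs2: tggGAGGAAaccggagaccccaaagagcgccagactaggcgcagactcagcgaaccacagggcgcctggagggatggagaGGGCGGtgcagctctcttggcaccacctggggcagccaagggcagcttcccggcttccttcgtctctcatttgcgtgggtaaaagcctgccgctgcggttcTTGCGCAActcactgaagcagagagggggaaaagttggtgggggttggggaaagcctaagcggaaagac
Of these 7 motifs, Alox5 held 1 GC box and 1 ETS core, and Ptges held 2 GC boxes and 1 ETS core. Ptgs2 held 1 GC box, 1 ETS core and 1 C/EBP match. None of these matches overlapped another motif, and the C/EBP match in Ptgs2 reads the same on both strands. A match is a run of letters and not a shown binding site. Among 32817 RefSeq promoter windows of the same 250 bases, 32.7% held the GC box, 23.3% the ETS core, 9.57% the C/EBP motif, 6.75% the AP-1 motif, 6.02% the E-box, 17.7% the CRE core and 7.6% the TATA box. In the window of Ptgs2, 183 bases lie in annotated exons of the noncoding gene Ptgs2os. The window of Ptges lies before the RefSeq start but inside the GENCODE span of the gene, chr2:30889471-30929863, which starts further upstream. Windows were found for 8 of the 10 genes. Alox5ap and Alox15 had no entry.

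The cyclooxygenases stood far apart in level. Ptgs2, the inducible cyclooxygenase on chromosome 1, measured 490.4, 349 and 365 FPKM in day 5 replicates 1 to 3, 287 and 182 FPKM at day 14, and 355 and 399 FPKM at day 28. Both day 14 libraries lay below all others, and neither difference passed the test. The log2 fold change was -0.77 (adjusted p = 0.0720 by edgeR, SE 0.22) between days 5 and 14 and 0.69 (adjusted p = 0.276, SE 0.23) between days 14 and 28. The first of these depended on the day 14 library used: without day 14 replicate 1 it was -1.12 (adjusted p = 0.00473 by edgeR) and without day 14 replicate 2 it was -0.48 (0.270). DESeq2 (0.00462) and edgeR without the filter (0.00544) also called it. Between days 5 and 28 it was -0.08 (adjusted p = 0.837, SE 0.21), and the libraries of those days overlapped. Ptgs2 ranked among the most abundant genes in this dataset, with its mean above that of at least 97.1% of the tested genes at each time point. The bridges were digested with collagenase and hyaluronidase before the sort, and the effect of this step on the level was not tested.

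Ptgs1, the constitutive cyclooxygenase on chromosome 2, measured 3.98, 2.48 and 4.37 FPKM at day 5, 6.20 and 4.53 FPKM at day 14, and 5.32 and 4.21 FPKM at day 28. The day 14 libraries were above all of day 5, and those of day 28 overlapped both other days. The log2 fold change between days 5 and 14 was 0.58 (SE 0.25) and did not pass the test (adjusted p = 0.206 by edgeR). Within a library, Ptgs2 exceeded Ptgs1 by 83.6-fold to 141-fold at day 5, 40.2-fold and 46.3-fold at day 14, and 66.8-fold and 94.8-fold at day 28. The ratio was lowest in the day 14 libraries. An exact permutation test over the 3 days (one-sided in F, 210 assignments, smallest possible p = 0.00952) gave p = 0.0381, and 0.0794 after adjustment over the 5 ratios tested here, so the time courses of the pair were not shown to differ.

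**Figure D1:**
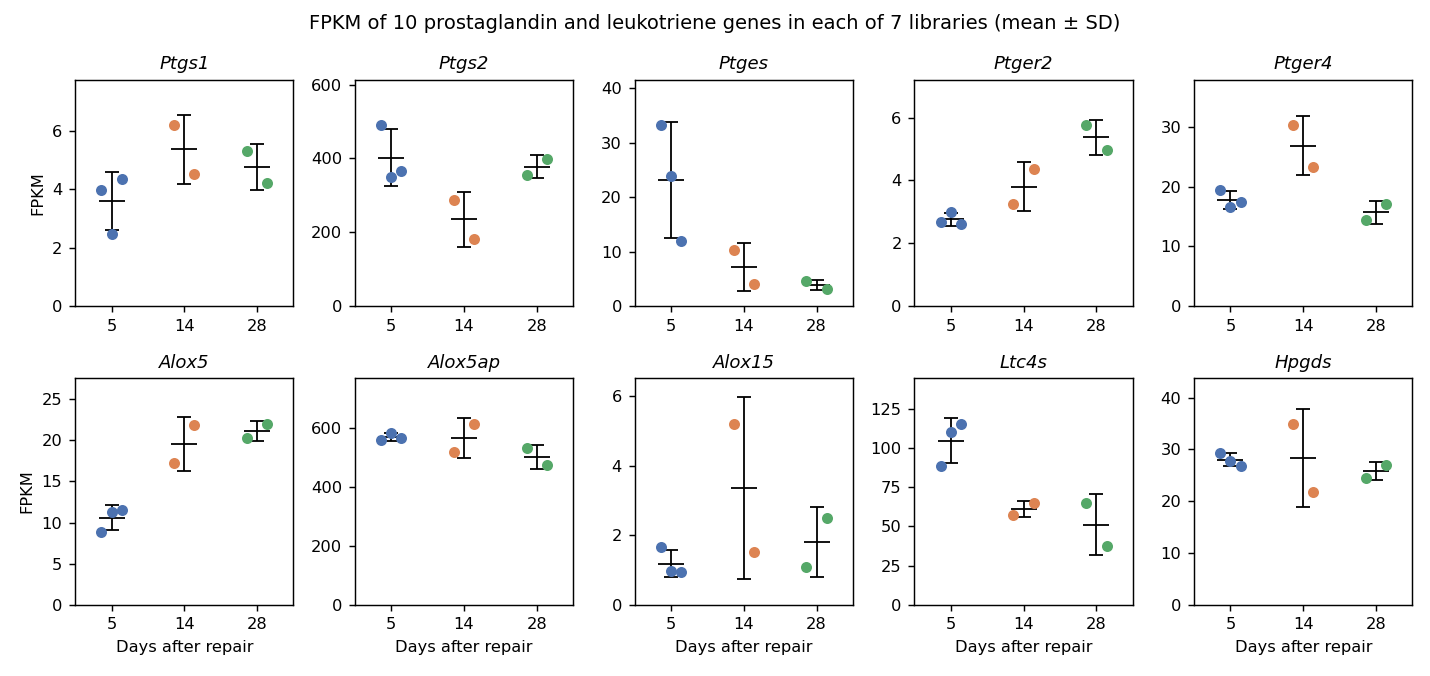
FPKM of each gene (vertical axis, from 0, with its own range) against days after repair (5, 14, 28), with 1 point per library and bars for the mean ± SD of 3, 2 and 2 libraries. Alox5 rose and Ptges and Ltc4s fell from day 5 to day 28 with no overlap of the libraries, whereas Ptgs2 was lowest at day 14.

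Ptges, the microsomal synthase that converts prostaglandin H2 into prostaglandin E2, had the largest fall of the 10 genes. It measured 33.3, 24.0 and 12.0 FPKM at day 5, 10.3 and 4.01 FPKM at day 14, and 4.60 and 3.20 FPKM at day 28. Day 5 libraries lay above those of the later days. The mean fell from 23.1 ± 10.6 (SD, n = 3) to 3.90 ± 0.994 (SD, n = 2) FPKM, a 5.93-fold lower level at day 28, and the log2 fold change was -2.54 (adjusted p = 0.00993 by edgeR, SE 0.48). The call was lost without day 28 replicate 1 (adjusted p = 0.0787) or day 28 replicate 2 (adjusted p = 0.0788), where the remaining day 28 library is assumed to vary like the others. Between days 5 and 14 the log2 fold change was -1.70 (adjusted p = 0.0675, SE 0.46), which did not pass. Without day 14 replicate 1 it was -2.51 and passed (adjusted p = 0.00607 by edgeR), and without day 14 replicate 2 it was -1.16 (0.225). The 6 platelet markers also summed to 1481 to 2122 FPKM at day 5 and to 266 to 343 FPKM at day 28. Most of this sum was Pf4, at 1456 to 2067 FPKM at day 5. Pf4 and Ppbp were called lower, and Itga2b, at or below 0.393 FPKM throughout, was not called. Gp1ba, at or below 0.338 FPKM, was not called either, and its log2 fold change was positive (2.67). The sort marker genes Emr1 and Cd14 were called lower at day 28. The 5 endothelial markers summed to 14.6 to 26.4 FPKM at day 5 and to 3.66 to 6.82 FPKM at day 28. Kdr was 8.24-fold lower (adjusted p = 0.00290 by edgeR), Pecam1 3.58-fold lower (0.0145) and Tek, at most 0.267 FPKM, called higher. Cdh5 was not called, with means of 1.41 and 1.29 FPKM at days 5 and 28 (adjusted p = 0.888 by edgeR). The part of these cells in the Ptges value was not tested.

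Hpgds, the hematopoietic prostaglandin D synthase, measured 29.3, 27.8 and 26.8 FPKM at day 5, 35.0 and 21.7 FPKM at day 14, and 24.5 and 27.0 FPKM at day 28. The libraries of all 3 days overlapped, and the largest log2 fold change in size was -0.13 (adjusted p = 0.826 by edgeR, SE 0.19), between days 14 and 28. The FPKM of Hpgds exceeded that of Ptges in all libraries but day 5 replicate 1. The ratio of Hpgds to Ptges was 0.880, 1.16 and 2.23 at day 5, 3.41 and 5.41 at day 14, and 5.33 and 8.44 at day 28. Every later library was above all of day 5. The exact permutation test over days gave p = 0.0476 and 0.0794 after adjustment over the 5 ratios, so this shift between the synthases did not pass.

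Ptger2, the EP2 receptor for prostaglandin E2 on chromosome 14, was low and rose by day 28. It measured 2.67, 2.98 and 2.62 FPKM at day 5, 3.25 and 4.36 FPKM at day 14, and 5.76 and 4.98 FPKM at day 28. The libraries of the 3 days did not overlap. Between days 5 and 28 the level was 1.95-fold higher, with a log2 fold change of 0.98 (adjusted p = 0.00755 by edgeR, SE 0.17), and the call was lost without day 28 replicate 1 (adjusted p = 0.0749). Changes from day 5 to day 14 (0.48, adjusted p = 0.141, SE 0.18) and from day 14 to day 28 (0.50, adjusted p = 0.340, SE 0.19) did not pass on the log2 scale. Without day 14 replicate 1 the first was 0.68 and passed (adjusted p = 0.0422 by edgeR), and without day 14 replicate 2 it was 0.24 (0.625). Exons of the antisense gene Gm17173 share 246 bases with those of Ptger2, and those of Gm49364 share 144, so without a statement on strand the reads of these genes cannot be told apart.

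Ptger4, the EP4 receptor on chromosome 15, was the more abundant of the receptors and was highest at day 14. It measured 19.5, 16.6 and 17.4 FPKM at day 5, 30.3 and 23.3 FPKM at day 14, and 14.4 and 17.1 FPKM at day 28. Both day 14 libraries were above the rest, and days 5 and 28 overlapped. The rise between days 5 and 14 had a log2 fold change of 0.62 (adjusted p = 0.0393 by edgeR, SE 0.14). It held only without day 14 replicate 2 (adjusted p = 0.0231) and was lost on leaving out any other single library, with adjusted p from 0.0566 without day 28 replicate 1 to 0.132 without day 5 replicate 2. The log2 fold change from day 14 to day 28 was -0.76 (adjusted p = 0.0999, SE 0.15), and it passed without day 14 replicate 2 (-0.93, adjusted p = 0.00663 by edgeR). Although the gate removed Ly6G and Thy1.2 cells, the 4 neutrophil markers tested stood higher at day 14 than at day 5, and none passed the test. All 6 fibroblast markers stood higher too, and of these Col1a2 passed. The part of these cells in the Ptger4 value was not tested. Ptger4 shares 1015 exonic bases with the pseudogene Gm15937 and 82 with the protein-coding gene Ttc33, both on the opposite strand. From the wider list, Ptger1, the EP1 receptor, had mean levels of 28.2, 26.4 and 23.0 FPKM at days 5, 14 and 28. Ptger1 was called in no comparison, and the means of Ptger4 were 17.9, 26.8 and 15.7 FPKM. The ratio of Ptger4 to Ptger2 was 5.57 to 7.31 at day 5, 9.33 and 5.36 at day 14, and 2.49 and 3.43 at day 28, with an exact permutation p of 0.0762 and an adjusted value of 0.0952.

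Alox5, the 5-lipoxygenase that starts leukotriene synthesis, rose early and stayed higher. It measured 8.85, 11.3 and 11.6 FPKM at day 5, 17.2 and 21.9 FPKM at day 14, and 20.3 and 22.0 FPKM at day 28. Every later library was above all 3 of day 5, and those of days 14 and 28 overlapped. Between days 5 and 28 the mean went from 10.6 ± 1.51 (SD, n = 3) to 21.2 ± 1.23 (SD, n = 2) FPKM, and the log2 fold change was 1.01 (adjusted p = 0.00418 by edgeR, SE 0.15). This call held on leaving out each library in turn (adjusted p 0.000381 to 0.0379). Between days 5 and 14 it was 0.90 (adjusted p = 0.0199, SE 0.15), a call that was lost without day 5 replicate 1 (0.0665), day 5 replicate 2 (0.0646), day 5 replicate 3 (0.0668) or day 14 replicate 2 (0.0646). Between days 14 and 28 it was 0.12 (adjusted p = 0.821, SE 0.17). The 6 dendritic cell markers summed to between 8.18 and 13.0 FPKM at day 5, 10.8 and 24.9 at day 14, and 19.8 and 30.4 at day 28. From day 5 to day 28, 5 of the 6 had a positive log2 fold change. Only Ccr7 was called higher (2.68-fold, adjusted p = 0.0400 by edgeR). Ccr7 was the largest part of the sum, with means of 6.64, 11.1 and 17.8 FPKM on the 3 days in order. Flt3, Zbtb46, Xcr1 and Clec9a did not exceed 1.62 FPKM and were not called. The part of dendritic cells in the Alox5 value was not tested. Alox5 lies on chromosome 6 from 116410077 to 116461178 on the minus strand (GRCm38, GENCODE), and its printed upstream window adjoins its start.

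Alox5ap, which encodes the protein that presents arachidonic acid to 5-lipoxygenase, was the most abundant of the 10 genes in mean FPKM at each time. It measured 559.7, 584 and 565 FPKM at day 5, 517 and 615 FPKM at day 14, and 531 and 474 FPKM at day 28. The highest library was 1.30-fold above the lowest, the narrowest range of the 10 genes, although both day 28 libraries were below all of day 5. No log2 fold change passed, and that from day 5 to day 28 was -0.17 (adjusted p = 0.390 by edgeR, SE 0.12).

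Ltc4s, the synthase that joins glutathione to leukotriene A4 to give leukotriene C4, fell while Alox5 rose. It measured 88.3, 110.1 and 116 FPKM at day 5, 57.4 and 64.9 FPKM at day 14, and 65.0 and 37.3 FPKM at day 28. All later libraries were below all of day 5, and day 28 replicate 2 was the lowest. The mean at day 28 was 2.05-fold lower than at day 5, and the log2 fold change was -1.005 (adjusted p = 0.0194 by edgeR, SE 0.23). The call was lost without day 28 replicate 2 (adjusted p = 0.0725), day 5 replicate 2 (0.0616) or day 5 replicate 3 (0.0615). The change from day 5 to day 14 was -0.76 (adjusted p = 0.0807, SE 0.22), called by DESeq2 (0.0157), by edgeR without the filter (0.00963) and without day 28 replicate 1 (0.0497). Mast cells are a known source of leukotriene C4. Of their 9 markers, Hdc measured 15.7, 20.6 and 20.0 FPKM at day 5, 41.8 and 34.9 FPKM at day 14, and 16.7 and 9.33 FPKM at day 28, and the other 8 were at or below 0.874 FPKM. Their part in the Ltc4s value was not tested. Of the antisense gene Gm26542, 268 exonic bases lie within exons of Ltc4s. The ratio of Ltc4s to Alox5ap was 0.158 to 0.204 at day 5, 0.111 and 0.106 at day 14, and 0.122 and 0.0788 at day 28. All later libraries were below those of day 5, with an exact permutation p of 0.0476 and 0.0794 after adjustment.

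Alox15, a lipoxygenase that adds oxygen further along arachidonic acid, scattered widely between replicates of days 14 and 28. It measured 1.65, 0.966 and 0.948 FPKM at day 5, 5.22 and 1.51 FPKM at day 14, and 1.09 and 2.51 FPKM at day 28. Only day 14 replicate 1 stood clearly above the others, and the days overlapped. The log2 fold change from day 5 to day 14 was 1.49 (adjusted p = 0.130 by edgeR, SE 0.53), and without day 14 replicate 1 it was 0.36 (0.711). Without day 14 replicate 2 it was 2.13 and passed (adjusted p = 0.0342 by edgeR), as it did by DESeq2 (0.0402) and by edgeR without the filter (0.0213). In day 14 replicate 1 the fibroblast markers also summed to 222 FPKM and the eosinophil markers to 5.71 FPKM, the highest of all 7 libraries in both cases despite the gate on Thy1.2 and Siglec F, and their part in the Alox15 value was not tested. The ratio of Alox15 to Alox5 was not shown to differ over days (exact permutation p = 0.714). The paper, which used cuffdiff, names Alox15 in a cluster of its differentially expressed genes from this time course. It gives equal group sizes, whereas days 14 and 28 have fewer libraries than day 5 here.

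**Figure D2:**
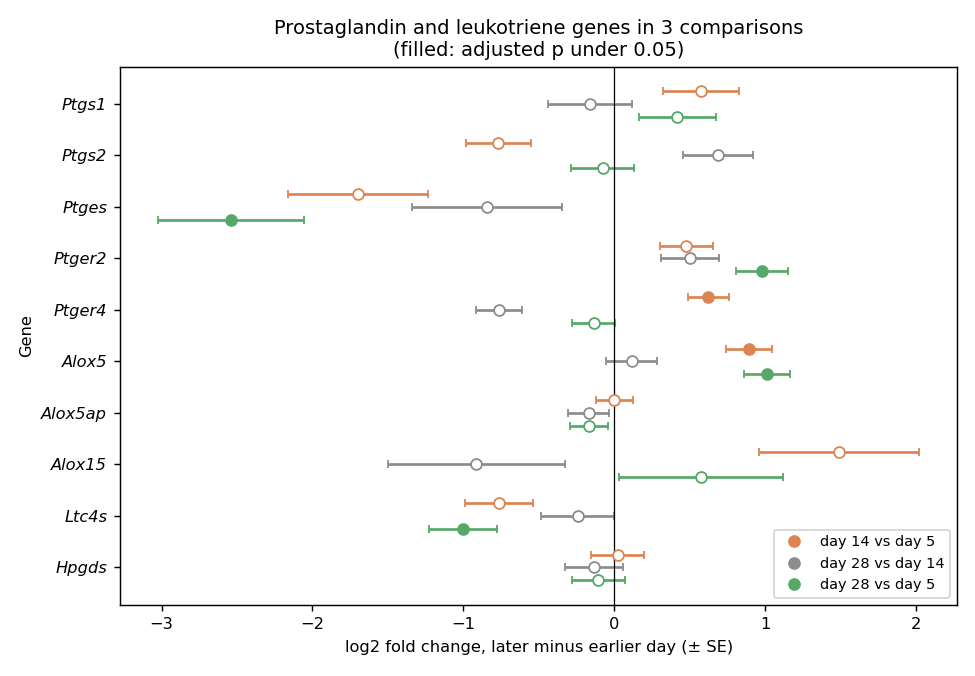
Log2 fold change (horizontal axis, later minus earlier day, with the SE of the edgeR fit) of the 10 genes in 3 comparisons, where filled points passed an adjusted p of 0.05. Ptges had the lowest value, -2.54 from day 5 to day 28, and none of the 10 gray points, days 14 to 28, is filled.

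Counted over the 10 genes, 2 were called higher and 0 lower from day 5 to day 14, where 2.84% of all tested genes were called higher, 1.94% lower and 4.78% in either direction. At an unadjusted p under 0.05 there were 8 of the 10, beside 24.0% of all genes, by DESeq2 5 beside 10.6%, and by limma on log2(FPKM + 1) 1 beside 1.96%. From day 14 to day 28, edgeR's quasi-likelihood test called 0 of the 10, beside 0.0311% of all genes called higher and 0.0311% lower, with 3 genes (Ptgs2, Ptger2 and Ptger4) at an unadjusted p under 0.05, beside 12.2% of all genes. DESeq2 called 1, Ptger4, beside 2.58% of all genes, and limma called 0, beside 0.0% of all genes. From day 5 to day 28, 2 of the 10 were called higher and 2 lower, beside 7.74% and 7.51% of all genes, and 15.2% in either direction. DESeq2 and limma each called 4, beside 19.3% and 14.0% of all genes, and 4 had an unadjusted p under 0.05, beside 31.5%. The libraries of the days compared did not overlap for 7 of the 10 genes from day 5 to day 14, for 3 from day 14 to day 28 and for 5 from day 5 to day 28, against 43.2%, 39.0% and 51.5% of all tested genes. The median log2 fold change of the 10 genes was 0.25, -0.16 and -0.09 in these 3 comparisons, and that of all tested genes 0.03, 0.01 and 0.03. The comparisons share libraries and are not independent of each other.

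**Figure D3:**
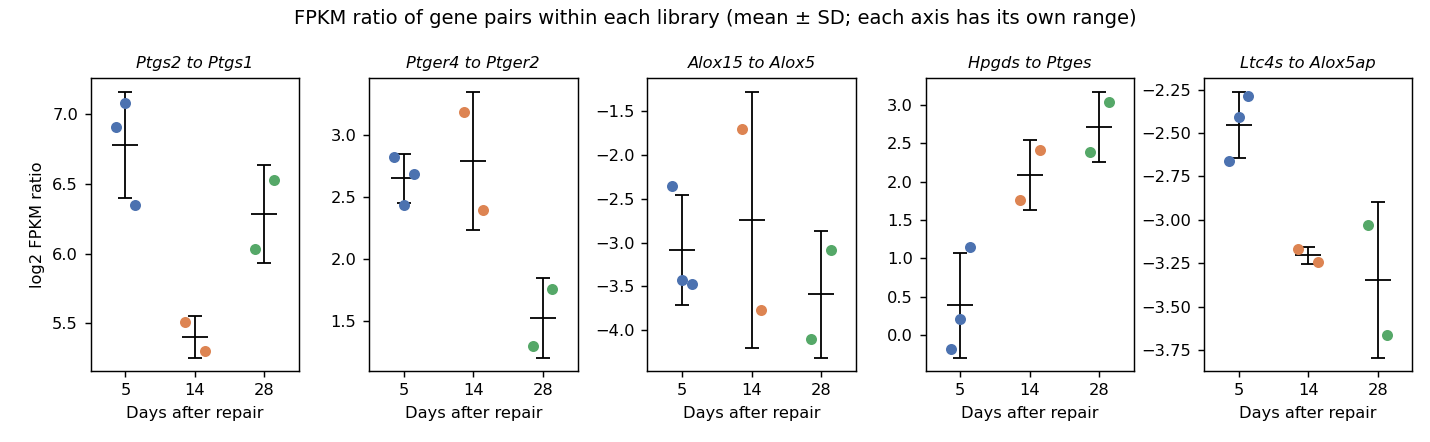
Log2 ratio of FPKM between 2 genes within each library (vertical axis, own range per panel) against days after repair, 1 point per library with mean ± SD. The ratio of Hpgds to Ptges rises from -0.18 to 1.15 at day 5 to 2.39 and 3.04 at day 28, and no ratio passed the permutation test after adjustment over the 5 ratios.

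The surrounding pathway was read from a list of 63 other eicosanoid genes, of which 43 were tested and 20 were too low to be tested. From day 5 to day 28, 6 of the 43 were called higher and 5 lower, beside 7.74% and 7.51% of all tested genes. From day 5 to day 14, 3 were called higher and 2 lower, beside 2.84% and 1.94%. From day 14 to day 28 edgeR called 0 of them, beside 0.0311% of all tested genes called higher and 0.0311% lower. At an unadjusted p under 0.05 there were 10, beside 12.2%, by DESeq2 1 beside 2.58%, and by limma 0 beside 0.0%. The genes that free or recycle arachidonic acid included the largest rise. Pla2g2d, a secreted phospholipase A2, measured 0.119, 0.188 and 0.221 FPKM at day 5, 5.73 and 2.83 FPKM at day 14, and 7.55 and 7.23 FPKM at day 28. Its log2 fold change was 4.60 by day 14 (adjusted p = 0.00475 by edgeR, SE 0.37) and 5.40 by day 28 (adjusted p = 0.000541, SE 0.37). The day 5 libraries held 6, 8 and 10 fragments of it. Mgll, which hydrolyses monoacylglycerols, rose from a mean of 0.189 to 1.07 FPKM by day 28 (log2 fold change 2.38, adjusted p = 0.0186, SE 0.53), and Daglb, a diacylglycerol lipase, rose by 0.80 (adjusted p = 0.00446, SE 0.12). Pla2g4a, the cytosolic phospholipase A2 that frees arachidonic acid for the cyclooxygenases, fell from 15.1 to 10.1 FPKM (log2 fold change -0.56, adjusted p = 0.0428, SE 0.16).

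Among the other synthases, Tbxas1, the thromboxane synthase, measured 64.5 to 83.2 FPKM in the 7 libraries and Lta4h, which makes leukotriene B4, 25.2 to 28.9 FPKM, with no call between any days. Ptgds, the other prostaglandin D synthase, had 2 fragments in 1 library and 0 in the rest. Fam213b, which makes prostaglandin F2 alpha from prostaglandin H2, fell by 0.44 on the log2 scale by day 28 (adjusted p = 0.0482 by edgeR, SE 0.13). Dpep2, a dipeptidase that converts leukotriene D4 to E4, rose by 0.77 (adjusted p = 0.0231, SE 0.18) by day 28. Ggt5, which converts leukotriene C4 to D4, rose by 1.41 by day 14 (adjusted p = 0.0415, SE 0.32). Ephx1, the microsomal epoxide hydrolase, measured 1.26, 4.84 and 1.65 FPKM at day 5, 16.4 and 45.7 FPKM at day 14, and 47.6 and 45.5 FPKM at day 28. Its log2 fold change was 3.62 by day 14 (adjusted p = 0.0136, SE 0.53) and 4.20 by day 28 (adjusted p = 0.00206, SE 0.53). Hpgd, which inactivates prostaglandins, had at most 45 fragments in a library and passed no test.

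The receptors moved in both directions. Cysltr1, a receptor for cysteinyl leukotrienes, measured 35.2, 30.2 and 33.9 FPKM at day 5, 20.2 and 18.8 FPKM at day 14, and 16.5 and 12.5 FPKM at day 28. The libraries of the 3 days did not overlap, and the log2 fold change by day 28 was -1.18 (adjusted p = 0.00188 by edgeR, SE 0.14). Ltb4r1, the high-affinity leukotriene B4 receptor, fell from a range of 18.1 to 24.6 FPKM at day 5 to 8.39 and 10.9 FPKM at day 14 (log2 fold change -1.15, adjusted p = 0.0184, SE 0.18), and stood at 13.2 and 11.7 FPKM at day 28. Fpr2, a receptor for lipoxin A4 and formyl peptides, fell from 62.1 to 94.1 FPKM at day 5 to 27.5 and 13.9 FPKM at day 28 (log2 fold change -1.95, adjusted p = 0.00345, SE 0.28). Ptgir, the prostacyclin receptor, rose by 1.22 on the log2 scale by day 28 (adjusted p = 0.0296, SE 0.31), from 4.09 to 6.87 FPKM at day 5 to 13.1 and 10.05 FPKM.

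Of the 11 calls from day 5 to day 28, those of Pla2g2d, Daglb, Cysltr1, Fpr2 and Ephx1 held on leaving out each library in turn. Mgll was lost without day 28 replicate 2 (adjusted p = 0.111). Ptgir, Dpep2 and Ltb4r1 were each lost without day 5 replicate 1, day 5 replicate 3 or either day 28 library, at adjusted p of 0.0564 to 0.1995. Pla2g4a and Fam213b were lost without any 1 of the 5 libraries of the days compared, at adjusted p of 0.0636 to 0.187. From day 5 to day 14, Pla2g2d held throughout. Ephx1 and Ltb4r1 were lost without day 5 replicate 1 or 3 (0.0557 to 0.0676), Cysltr1 without any day 5 library or day 14 replicate 2 (0.0647 to 0.0862), and Ggt5 without any library but day 14 replicate 2 (0.0593 to 0.130).

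**Figure D4:**
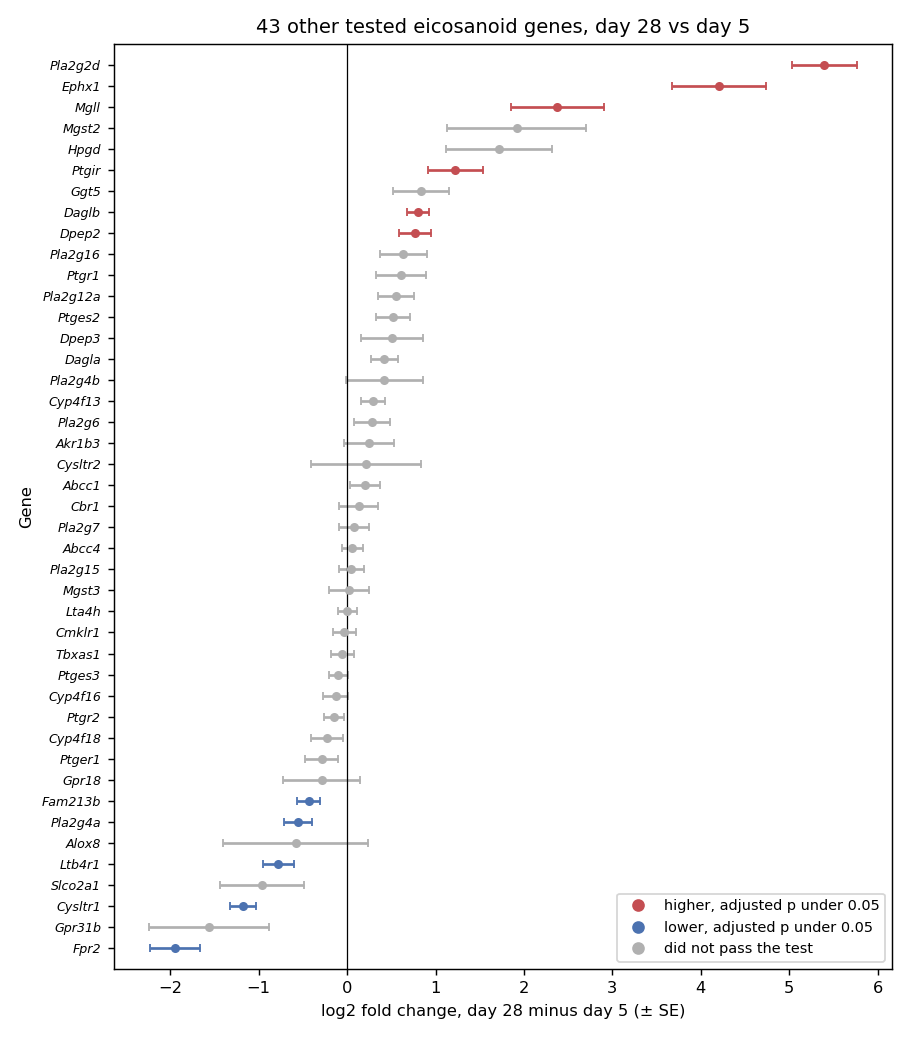
Log2 fold change from day 5 to day 28 (horizontal axis, with the SE of the edgeR fit) of the 43 other eicosanoid genes tested, ordered by value. The 6 red genes were called higher, led by Pla2g2d at 5.40, and the 5 blue genes lower, led by Fpr2 at -1.95.

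For Alox5, with 2 calls, and for the 2 genes with the lowest adjusted p among the 4 with 1 call each, Ptger2 and Ptges, the genes nearest in time course were taken by the Euclidean distance of centred log2(FPKM + 1) over the 7 libraries, among 7556 genes with a mean of at least 5 FPKM. Arhgap39 (distance 0.24), Sesn1 (0.24) and Ak3 (0.27) were nearest to Alox5. Klhdc2 (0.14), Mpp6 (0.18) and Aig1 (0.19) were nearest to Ptger2, whose own range over libraries was small. Gja1 (0.79), Klra2 (0.996) and Ifi205 (1.06) were nearest to Ptges, at larger distances. Gja1, which encodes a gap junction connexin, had mean levels of 18.3, 4.93 and 3.15 FPKM on the 3 days in order, and Ptges had 23.1, 7.13 and 3.90.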

How the data were processed

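Libraries were prepared from polyA+ RNA with the NEBNext Ultra kit and sequenced single-end. Per the labels, the authors used cutadapt 1.8, TopHat2 2.0.13 and Cuffdiff 2.2.1 on mm10. They deposited, for each gene and library, expected counts (fragments before scaling), a scaled signal (the same fragments after 1 factor per library) and FPKM. The scaled signal served only to derive the deposited scale factors. How multi-mapped reads and strand were handled is not given in the sources used here.

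Expected counts were rounded and fitted with edgeR 4.0.16 (R 4.3.3; TMM, expression filter by day, quasi-likelihood F test) over all 7 libraries with day as the factor, in place of the authors' cuffdiff. Ratios of FPKM used a pseudocount of 0.1. DESeq2 1.42.0, limma 3.58.1, other scaling, filters and the leaving out of libraries were alternatives. The tests were tried on simulated data. Fragment numbers carry counting error, which is all that a floor of 3 fragments covers. The 10 genes and the lists were chosen with earlier results of these data known. Named from the wider list were genes called at least once. Called or not, Lta4h, Ptgds, Tbxas1, Hpgd, Ltb4r1, Cysltr1, Ptgir and Pla2g4a, which make, bind or inactivate related mediators, were also named. Ptger1 was added later for its level beside that of Ptger4. Genes were placed with GENCODE vM21 on GRCm38, and promoter sequences are from RefSeq. The printed windows and the motif list were also chosen with results known. A STAT and a kB motif were searched first and are not shown. Among the printed windows, the STAT motif had a match in that of Ptges.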

Additional observations from a re-analysis of the deposited data

How the results depend on the processing

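The number of the 10 genes called was 2, 0 and 4 for days 5 to 14, 14 to 28 and 5 to 28, and on leaving out 1 library it was 0 to 4, 0 to 1 and 2 to 4. For days 5 to 14 it was 5 by DESeq2, 6 without a filter, 1 by limma with either pseudocount, 1 on only those days, and 0 at an adjusted p under 0.01 or with a 2-fold and 5 FPKM minimum. For days 14 to 28 it was 1 by DESeq2 and 2 without a filter, and for days 5 to 28 it was 2 with the fold minimum. Of the other eicosanoid genes, 5, 0 and 11 were called, and 1 to 10, 0 to 0 and 6 to 14 on leaving out 1 library. For days 5 to 14 these were 9 by DESeq2, 10 without a filter, 1 at 0.01 and 2 with the fold minimum. For days 14 to 28 they were 1 by DESeq2 and 1 without a filter. For days 5 to 28 they were 5 at 0.01 and 5 with the fold minimum. Of all tested genes, DESeq2 called 10.6%, 2.58% and 19.3% for days 5 to 14, 14 to 28 and 5 to 28. Settings other than the main one, DESeq2 and limma on log2(FPKM + 1) have no such share.

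With the replicate block, 0, 0 and 2 of the 10 genes were called (Alox5 and Ptges for days 5 to 28; Ptger2 at adjusted p = 0.0514 and Ltc4s at 0.0883), and 1, 0 and 5 of the others. Nothing given here says that a number pairs libraries. Deviations of same-numbered libraries correlated at 0.23, -0.14 and 0.00 (days 5 and 14, 14 and 28, 5 and 28) over 7556 tested genes, and at 0.09, -0.02 and 0.08 over 7613 genes with the untested ones kept. The set of tested genes was taken after the second set of values was seen, and it decides whether days 14 and 28 fall below -0.1. With the day 28 numbers swapped, an alternative chosen after seeing the data, 0 of the 10 and 0 of the others were called from day 14 to day 28.

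The values that changed sign had passed no test in the comparison named. From day 5 to day 14 the log2 fold change of Alox5ap was -0.0107 by DESeq2, -0.0108 with RLE scaling, -0.0091 with cuffdiff scaling, -0.0143 by limma with either pseudocount, -0.0071 with the replicate block, -0.0014 without a filter, and -0.13 to 0.12 on leaving out 1 library. That of Hpgds was -0.0194 and -0.0213 by limma, -0.0256 with the replicate block and -0.35 to 0.33 on leaving out 1 library. From day 14 to day 28, leaving out 1 library gave -0.36 to 0.0776 for Ptgs1, -0.0497 to 0.31 for Alox5, -1.62 to 0.23 for Alox15, -0.72 to 0.085 for Ltc4s and -0.43 to 0.25 for Hpgds. From day 5 to day 28 it gave -0.17 to 0.0926 for Ptgs2, including 0.003, and -0.12 to 1.08 for Alox15. The ratio of Alox15 to Alox5 ran from -1.02 to 0.0013 on the log2 scale. The cause was not tested. Alox15, with 44 to 209 fragments a library, was the least deeply counted of the 10 genes.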
